A study of Mus musculus with 6 samples.

Results

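The aryl hydrocarbon receptor axis was examined as 6 genes out of the 18543 in the deposited gene-level count table. They were taken by gene symbol and comprise the receptor Ahr, its partner Arnt, its repressor Ahrr, and the target genes Tiparp, Cyp1a1 and Cyp1b1. All 6 were in the table and all 6 passed the filter on low counts. The study sorted group 2 innate lymphoid cells (ILC2s), lymphocytes without antigen receptors that make type 2 cytokines, from the lungs of C57BL/6 mice at 8 weeks of age. There were 3 libraries labelled Atg5-/- (KO 1 to KO 3) and 3 labelled wild-type (WT 1 to WT 3). Every mouse of both genotypes received 0.5 µg of recombinant mouse IL-33 through the nose on each of 3 days and was sampled on day 4, so neither group shows ILC2s without IL-33. Atg5 encodes a conjugation factor needed to build autophagosomes. The labels name neither the deleted part of Atg5 nor a promoter or cell type that restricts the deletion, and do not say whether each library came from its own mouse. The p-values therefore measure the spread between these libraries, which may be technical.

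AHR is a ligand-activated transcription factor of the bHLH-PAS family. It waits in the cytoplasm with the chaperone HSP90 and the co-chaperone p23 (gene Ptges3). Once a planar aromatic ligand, a pollutant or a tryptophan derivative, is bound, it enters the nucleus, pairs with ARNT and binds DNA at response elements with the core GCGTG. Its products include its own brakes: AHRR competes for ARNT and DNA, TIPARP (also called PARP7) attaches ADP-ribose to AHR and limits its action, and the cytochrome P450 enzymes CYP1A1 and CYP1B1 oxidise ligands. Cyp1a1 is the usual readout of the receptor's activity. In mouse ILC2s, chiefly those of the gut, AHR has been described as a restraint on type 2 function.

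The stretches upstream of the 4 genes of the axis that AHR is known to induce are shown with the core letters marked. Whether the receptor binds at the marked letters was not tested. They are RefSeq sequences on GRCm38.p6, read from 5′ to 3′ on the strand of the gene, and cover the 250 bases before the start without bases that GENCODE places in an exon of the gene. Capitals mark the core GCGTG, or CACGC where the core lies on the opposite strand.

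Cyp1a1, chr9:57697363-57697612, forward strand: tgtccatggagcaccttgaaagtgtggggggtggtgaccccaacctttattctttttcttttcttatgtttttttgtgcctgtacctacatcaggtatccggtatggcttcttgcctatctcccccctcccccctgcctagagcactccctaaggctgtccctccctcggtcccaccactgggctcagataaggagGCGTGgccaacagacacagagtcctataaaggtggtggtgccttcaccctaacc

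Cyp1b1, chr17:79715062-79715311, reverse strand: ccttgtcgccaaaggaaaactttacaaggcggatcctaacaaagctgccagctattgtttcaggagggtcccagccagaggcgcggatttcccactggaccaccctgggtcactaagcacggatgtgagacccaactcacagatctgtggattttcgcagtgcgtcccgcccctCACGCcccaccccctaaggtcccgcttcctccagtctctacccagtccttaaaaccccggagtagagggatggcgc

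Tiparp, chr3:65528197-65528409, forward strand: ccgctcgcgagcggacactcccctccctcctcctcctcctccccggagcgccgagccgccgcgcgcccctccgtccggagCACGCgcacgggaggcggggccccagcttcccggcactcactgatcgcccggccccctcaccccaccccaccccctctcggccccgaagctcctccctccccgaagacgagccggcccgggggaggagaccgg

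Ahrr, chr13:74292332-74292581, reverse strand: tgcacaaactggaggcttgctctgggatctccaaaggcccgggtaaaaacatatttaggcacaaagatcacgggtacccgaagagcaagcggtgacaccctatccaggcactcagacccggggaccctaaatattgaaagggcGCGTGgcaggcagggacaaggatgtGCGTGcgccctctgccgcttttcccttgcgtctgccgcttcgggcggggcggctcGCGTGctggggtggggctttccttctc

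A core lay 54 bases before the start of Cyp1a1, 76 before Cyp1b1 and 170 before Tiparp, each counted to the outermost base of the core in the window. Ahrr held 3, at 107, 82 and 27 bases. RefSeq windows were at hand for 5 of the 6 genes (not for Ahr), and in all 5, Arnt included at 29 bases, the window held the core on one strand or the other. Of 32851 windows of the same length at the starts of mouse genes, 28.2% held it. The longer form TNGCGTG, which contains the core and was also searched on both strands, was found for Ahrr, in the copy at 27 bases, and for none of the other 4, against 4.1% of all windows. These matches describe letters and not binding. The Cyp1a1 window lies inside the interval that the deposited table gives for that gene, because a second annotated transcript starts farther upstream.

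Sequencing yielded 28827545 to 33662979 estimated counts per library, and levels are given in CPM, counts divided by the scaled library total. A floor of 3 counts equals 0.0892 to 0.104 CPM. The targeted gene did not keep to the labels. Atg5 had 23.0, 25.6 and 52.2 CPM in KO 1, KO 2 and KO 3, against 66.3, 71.8 and 21.8 CPM in WT 1, WT 2 and WT 3, as labelled. WT 3 thus had the lowest Atg5 level of the 6 libraries, and KO 3 lay nearer to WT 1 and WT 2 than to KO 1 and KO 2. The log2 CPM of WT 3 over all genes tested correlated at r = 0.991 with KO 1 but at 0.946 with WT 1. For KO 3 the values were 0.979 with KO 1 and 0.933 with WT 1. The names KO 1 to WT 3 are therefore labels only, and each direction given here is one between labels. Each axis gene difference is given from the fit to all 6 libraries and from the fit without WT 3, which keeps KO 3. WT 3 was left out after these values were seen. Adjusted p-values of the fits without WT 3 therefore describe the libraries kept and are not independent tests of genotype. Each pair of libraries differed by more than counting noise (chi-square per gene at least 9.08), so none was merged.

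Compared per length, as CPM per kilobase of annotated exon, the axis spanned a wide range of levels. Tiparp was the most abundant, at 56.1 ± 7.84 in libraries labelled KO and 31.1 ± 14.6 in those labelled WT (SD, n = 3 each), and exceeded 89.0% of the 13799 tested genes that had an exon length. Ahr was at 8.27 ± 0.767 under the KO label and 5.02 ± 2.82 under the WT label, and Arnt at 6.18 ± 0.438 and 6.78 ± 0.457 in the same order of labels. Both lay near the middle of all tested genes (55.8% and 55.3%). In the libraries labelled KO every Ahr level per length was above every Arnt level, whereas in those labelled WT the 2 genes overlapped. Cyp1a1 was at 2.39 ± 0.332 under the KO label and 0.868 ± 0.664 under the WT label. Ahrr was at 1.10 ± 0.646 and 1.10 ± 0.178, and Cyp1b1, the lowest, at 0.315 ± 0.136 and 0.167 ± 0.0655. Cyp1a1 exceeded Ahrr in every library labelled KO but overlapped with it under the WT label. Ahrr and Cyp1b1 overlapped under the KO label, where the Ahrr level of KO 3 lay below the Cyp1b1 level of KO 1.

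**Figure D1:**
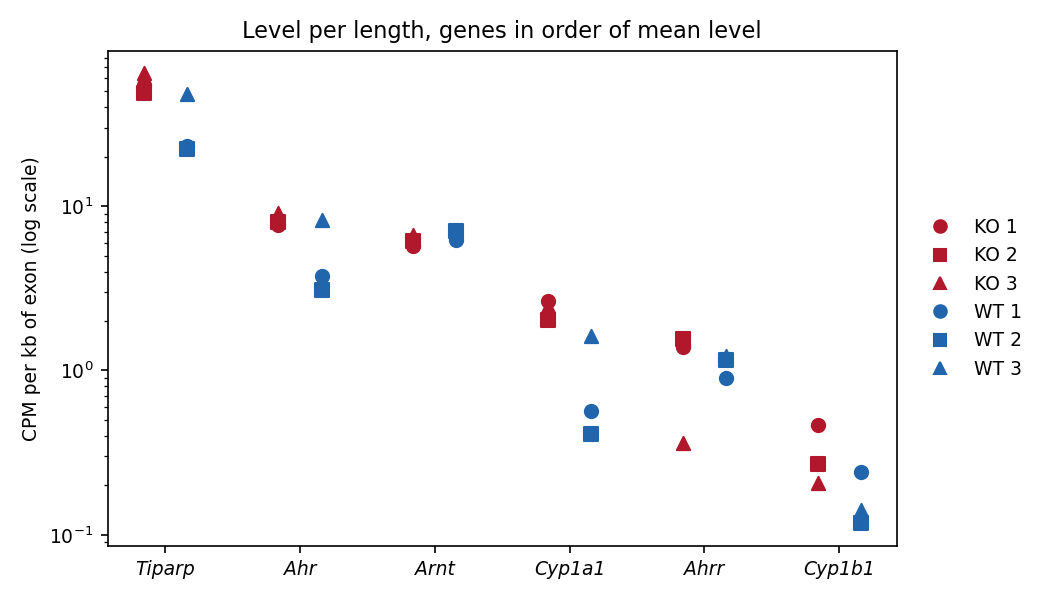
Level of each axis gene per kilobase of annotated exon (CPM per kb, log scale), with 1 point per library. Libraries labelled KO are red and on the left of each pair, libraries labelled WT are blue and on the right, and the shape gives the replicate number. Tiparp leads with 22.2 to 64.4 and Cyp1b1 is lowest with 0.118 to 0.469.

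Between genotype labels, the receptor, Tiparp and Cyp1a1 were higher under the KO label than in WT 1 and WT 2, with WT 3 within the KO range for Ahr and between WT 1 or WT 2 and the KO libraries for Tiparp and Cyp1a1, while Arnt, Ahrr and Cyp1b1 showed no difference that passed a test. In edgeR's quasi-likelihood fit to all 6 libraries, 0 of the 6 genes had an adjusted p under 0.05, as did 0 of all 14052 genes tested (0%). Without adjustment 2 of the 6 (Tiparp and Cyp1a1) and 2026 of all genes had p under 0.05. DESeq2, limma-voom and limma-trend also called 0 of the 6, and DESeq2 called 323 of the 12647 genes for which it gave an adjusted p (2.55%). Without WT 3, 3 of the 6 were called higher and 0 lower. In that fit 33.9% of the 14743 genes tested were called, 17.7% of all those tested as higher and 16.1% as lower. The median difference of the 6 was 1.05 on the log2 scale without WT 3 and 0.78 with all 6 libraries, beside 0.016 and 0.017 over all genes tested.

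**Figure D2:**
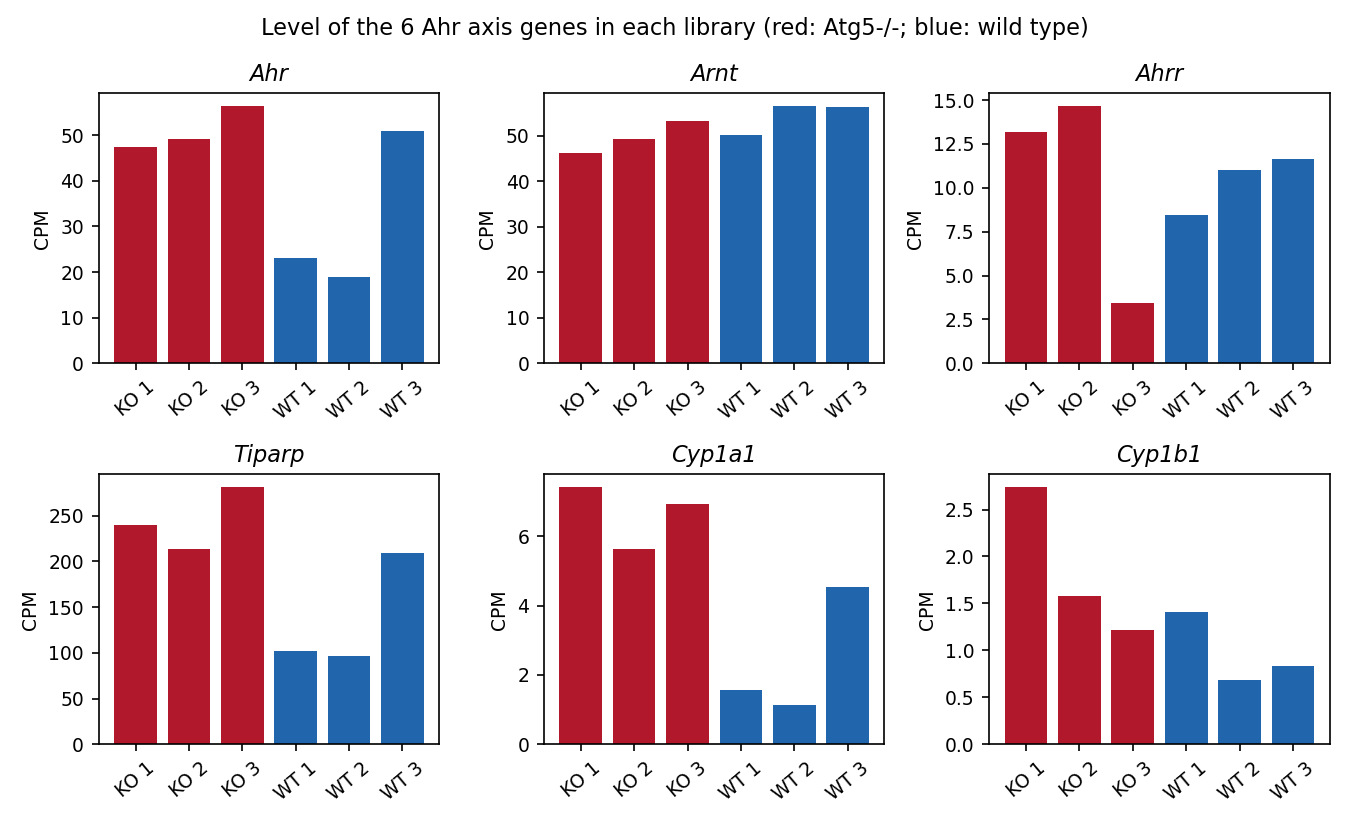
CPM of the 6 axis genes in each library, with red bars for libraries labelled Atg5-/- and blue bars for those labelled wild type; each vertical axis starts at 0 and has its own scale. For Ahr, Tiparp and Cyp1a1, WT 1 and WT 2 are the 2 lowest bars and WT 3 is within the KO range for Ahr and just below it for Tiparp and further below for Cyp1a1, while Arnt is level and Ahrr is lowest in KO 3.

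The receptor gene Ahr (ENSMUSG00000019256.17, chromosome 12, 35497974 to 35535038 on the reverse strand of mm10) was at 47.4, 49.1 and 56.3 CPM in KO 1, KO 2 and KO 3, against 23.1, 18.9 and 50.9 CPM in WT 1, WT 2 and WT 3. The groups overlapped through WT 3 alone, whose level was 99.8% of the KO mean. The difference with all 6 libraries was 0.72 on the log2 scale (SE 0.36, adjusted p = 0.363, edgeR). Without WT 3, Ahr rose by 1.29 (SE 0.15, adjusted p = 0.000869, edgeR), a KO mean 2.43 times that of WT 1 and WT 2. WT 3 itself stood at 2.42 times the mean of WT 1 and WT 2, as high as the KO libraries. In bulk libraries, a change in the RNA per cell and a change in the share of cells that make it cannot be told apart.

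Arnt (ENSMUSG00000015522.18, chromosome 3, 95434388 to 95497240, forward strand), the obligate partner of AHR and also of the hypoxia-inducible factors, was flat. It had 46.1, 49.2 and 53.1 CPM in the libraries labelled KO and 50.1, 56.4 and 56.4 CPM in those labelled WT. The groups overlapped, and the largest value was little above the smallest. The difference was -0.13 with all 6 libraries (SE 0.13, 95% interval -0.44 to 0.17, adjusted p = 0.575, edgeR). Without WT 3 it was -0.10 (95% interval -0.38 to 0.18, adjusted p = 0.573). A change of the size seen for Ahr without WT 3 lies outside both intervals.

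Ahrr, the repressor (ENSMUSG00000021575.16, chromosome 13, 74211118 to 74292331, reverse strand), had a profile over the libraries unlike that of Ahr. It was at 13.2, 14.6 and 3.41 CPM in KO 1, KO 2 and KO 3, against 8.46, 11.0 and 11.6 CPM in WT 1, WT 2 and WT 3. KO 1 and KO 2 were the 2 highest libraries and KO 3 the lowest by far, with 107 counts against 258 to 492 elsewhere. The difference was 0.0058 (SE 0.51, adjusted p = 0.995, edgeR) with all 6 libraries and 0.10 (SE 0.55, adjusted p = 0.908) without WT 3. The 95% interval of the fit to all 6, from -1.19 to 1.20, holds the 0.85 found for Tiparp in the same fit. Without WT 3 the interval, from -1.19 to 1.40, holds the 1.29 found for Ahr in that fit. KO 3 decided the value: it was 0.43 without KO 3 (SE 0.23, adjusted p = 0.496) and 0.52 without KO 3 and WT 3 (SE 0.21, adjusted p = 0.074).

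Tiparp (ENSMUSG00000034640.9, chromosome 3, 65528410 to 65555518, forward strand), the ADP-ribosyltransferase, was at 240, 213 and 281 CPM in KO 1, KO 2 and KO 3, against 101, 96.7 and 209 CPM in WT 1, WT 2 and WT 3. All KO levels lay above all WT levels, but KO 2 and WT 3 were nearly equal. The log2 difference was 0.85 with all 6 libraries (SE 0.32, adjusted p = 0.342, edgeR). Without WT 3 Tiparp rose by 1.31 (SE 0.13, adjusted p = 0.000472), 2.47-fold. The gene 4931440P22Rik overlaps it on the opposite strand and had 1.69 to 2.87 CPM; its part in the Tiparp counts was not tested.

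Cyp1a1 (ENSMUSG00000032315.6, chromosome 9, 57687928 to 57703824, forward strand), the ligand-oxidising enzyme, had the largest log2 difference of the 6 genes in both fits. It was at 7.41, 5.62 and 6.93 CPM in KO 1, KO 2 and KO 3, against 1.57, 1.15 and 4.54 CPM in WT 1, WT 2 and WT 3. These levels stand for 214, 189 and 217 counts under the KO label and 48, 35 and 137 counts under the WT label, well above the floor of 3. The groups did not overlap, and WT 3 reached 68.3% of the KO mean, a lower share than for Ahr or for Tiparp (85.5%). The log2 difference was 1.46 with all 6 libraries (SE 0.54, adjusted p = 0.342, edgeR). Without WT 3 Cyp1a1 rose by 2.29 (SE 0.32, adjusted p = 0.00188), 4.89-fold. Tiparp and Cyp1a1 were the 2 of the 6 genes whose groups did not overlap, both higher under the KO label. Groups did not overlap in 18.5% of all genes tested, and in 9.26% they lay apart with the KO label higher.

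Cyp1b1 (ENSMUSG00000024087.4, chromosome 17, 79706953 to 79715041, reverse strand), a related P450 enzyme, had the lowest counts of the 6 genes. It was at 2.74, 1.58 and 1.21 CPM in KO 1, KO 2 and KO 3, against 1.41, 0.687 and 0.829 CPM in WT 1, WT 2 and WT 3, or 38 to 79 counts against 21 to 43. The groups overlapped, with WT 1 above KO 3. The log2 difference was 0.91 (SE 0.50, 95% interval -0.27 to 2.10, adjusted p = 0.376, edgeR) and without WT 3 it was 0.82 (SE 0.56, adjusted p = 0.313). In WT 3 the level was 45.0% of the KO mean, so Cyp1b1 did not show the elevated WT 3 level of Ahr, Tiparp and Cyp1a1.

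**Figure D3:**
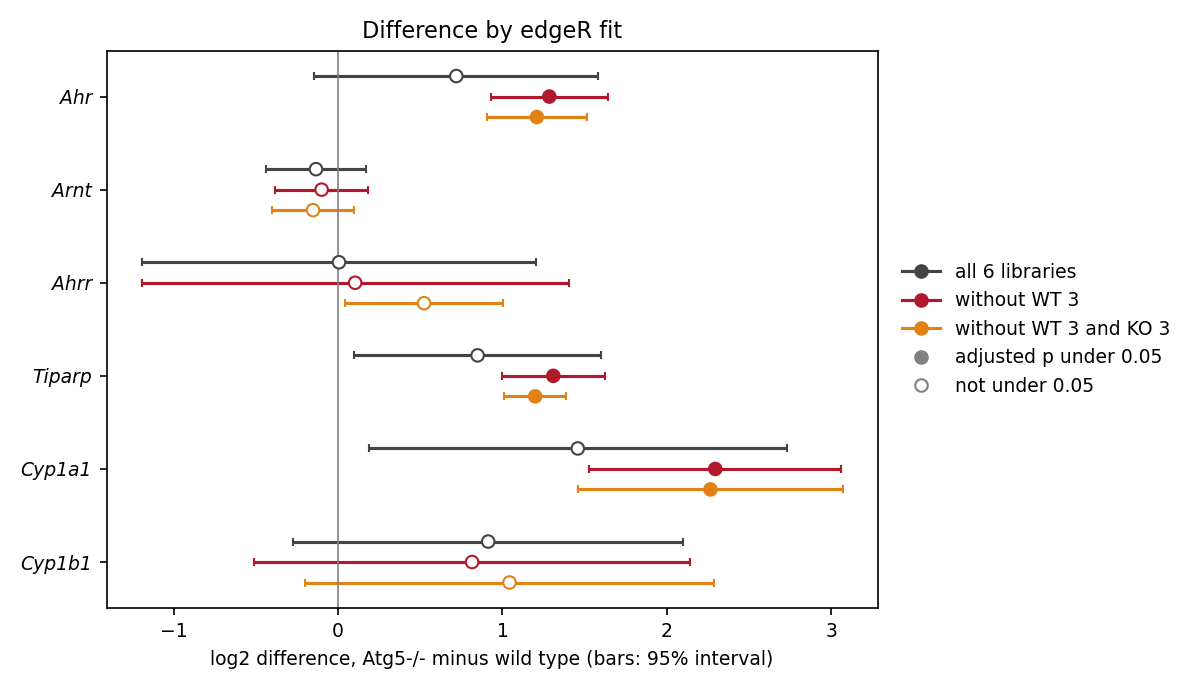
Log2 difference between libraries labelled Atg5-/- and wild type for each axis gene, with its 95% interval, in 3 edgeR fits: all 6 libraries (grey), without WT 3 (red), and without WT 3 and KO 3 (orange). Filled points have an adjusted p under 0.05. Ahr, Tiparp and Cyp1a1 are filled in both fits that leave out WT 3, at 1.29, 1.31 and 2.29 without WT 3 alone, and no point is filled with all 6 libraries.

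The count of 3 called genes was also found without both libraries numbered 3 (2 against 2 libraries), where 45.4% of 14315 genes were called and 22.7% were called higher. The differences there were 1.21 for Ahr (adjusted p = 7.04e-05, edgeR), 1.20 for Tiparp (adjusted p = 3.46e-06) and 2.27 for Cyp1a1 (adjusted p = 0.000631). In the 15 alternatives that keep WT 3, 0 of the 6 genes were called, with adjusted p from 0.273 to 0.781 for Ahr, from 0.141 to 0.781 for Tiparp and from 0.119 to 0.781 for Cyp1a1.

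Among themselves, Ahr and Tiparp had the closest profiles. After each gene was centred on its mean log2 CPM, they differed by a root mean square of 0.12 over the 6 libraries, followed by Tiparp and Cyp1a1 (0.32) and Ahr and Cyp1a1 (0.34). Ahrr and Cyp1a1 were farthest apart (1.16). The search for near profiles covered 9977 tested genes of at least 1 on the mean log2 CPM scale. It left out gene models without a given name and genes of the mitochondrial genome. Nearest to Ahr were Nol9 (0.048), Lars (0.057) and Pik3r5 (0.069). Nearest to Tiparp were Mphosph10 (0.051), Zfp202 (0.066) and Tbcel (0.077). Nol9 and Mphosph10 act in ribosome assembly and Lars charges leucine tRNA. Whether the nearest genes, Pik3r5, Zfp202 and Tbcel included, share a function was not tested. Nol9 had 141, 134 and 161 CPM under the KO label and 69.5, 56.7 and 153 CPM under the WT label, the same order of libraries as for Ahr apart from KO 1 and KO 2. For Cyp1a1 the nearest were Gnaz (0.12), Tmtc2 (0.14) and Ntng2 (0.15). Ahrr had the histone genes Hist1h2ae (0.16) and Hist1h2ap (0.17) nearest, then Ankrd29 (0.23), and the 2 histone genes likewise had their lowest level in KO 3. Exoc7, Zfp638 and Tmx2 were nearest to Arnt (0.032 to 0.039), and Klrb1b, Kbtbd8 and Zfp160 to Cyp1b1 (0.17 to 0.23). All these profiles come from the same 6 libraries, of which WT 1 and WT 2 stand apart in many genes.

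The machinery that holds AHR ready moved with the receptor in the fit without WT 3. Of 9 genes of the complex, its chaperones and interacting factors, Ahr and Arnt included, 5 rose and 0 fell in that fit (median 1.15 on the log2 scale), beside 17.7% and 16.1% of all genes, and 0 were called with all 6 libraries (median 0.61). Hsp90ab1, a cytosolic HSP90, had 3547, 3601 and 3341 CPM under the KO label, against 1155, 1219 and 3667 CPM in WT 1, WT 2 and WT 3. It rose by 1.57 without WT 3 (SE 0.08, adjusted p = 5.27e-05, edgeR), and Hsp90aa1 by 1.31 (SE 0.10, adjusted p = 0.0002). Ptges3, the co-chaperone p23, rose by 1.15 (SE 0.10, adjusted p = 0.000253). Arnt2, a relative of Arnt that was at most 3.71 CPM in any library, rose by 1.87 (SE 0.52, adjusted p = 0.0308). WT 3 had the KO level of the 2 HSP90 genes and of Ptges3, as it had of Ahr.

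Among the wider battery of genes that AHR is known to induce in mouse liver and other tissues, 13 of 16 were tested without WT 3, the 4 target genes of the axis included. Of these 7 rose, Cyp1a1 and Tiparp among them, and 1 fell (median 0.84), where 17.7% of all genes rose and 16.1% fell, and with all 6 libraries 0 of 12 were called (median 0.75). Aldh3a1, an aldehyde dehydrogenase, was at 16.8, 17.1 and 20.4 CPM in KO 1, KO 2 and KO 3, against 4.88, 6.02 and 13.2 CPM in WT 1, WT 2 and WT 3. Like Cyp1a1 it separated by label with WT 3 between the groups, and it rose by 1.74 without WT 3 (SE 0.21, adjusted p = 0.00108, edgeR). Nqo1, a quinone reductase that the stress factor NRF2 also induces, rose by 0.67 (SE 0.11, adjusted p = 0.00345), and Gstm1, a glutathione transferase also induced by NRF2, by 1.82 (SE 0.18, adjusted p = 0.000465). Gstm1 was highest in WT 3, at 174 CPM. Ugt1a7c, of the UDP-glucuronosyltransferase family, fell by 2.69 (SE 0.48, adjusted p = 0.00489). It had 0.506 to 0.762 CPM under the KO label, against 2.52, 5.60 and 0.464 CPM under the WT label. The Ugt1a genes share their last exons, so how their reads were divided is uncertain.

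A further list held genes that AHR has been tied to in lymphocytes. Of 16 tested, 3 rose and 3 fell without WT 3, close to the 17.7% and 16.1% of all genes (median -0.49, also with Il22 at its bound), and 0 were called with all 6 libraries (median -0.29). Kit, a growth factor receptor, rose by 1.55 (SE 0.10, adjusted p = 0.000112, edgeR) and the type 2 cytokine gene Il13 by 1.66 (SE 0.15, adjusted p = 0.000305). Notch2 fell by 1.40 (SE 0.12, adjusted p = 0.000273) and Il1rl1, the IL-33 receptor, by 1.00 (SE 0.10, adjusted p = 0.000527). Of these 4, Notch2 alone separated by label with all 6 libraries, at 24.6, 21.2 and 22.3 CPM under the KO label against 60.2, 60.3 and 31.6 CPM under the WT label. Il22, an AHR-dependent cytokine of ILC3s, is named for its values. It had 111, 145 and 39 counts in KO 1, KO 2 and KO 3, against 0, 0 and 46 counts in WT 1, WT 2 and WT 3. Its KO mean was at least 31.9-fold higher than the floor of 3 counts per library that WT 1 and WT 2 allow. Gfi1, a transcriptional repressor, was not called (-0.44, adjusted p = 0.244).

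Another list held genes of tryptophan use and uptake, only some of which make AHR ligands. Of 12 tested, 4 rose and 2 fell without WT 3, beside 17.7% and 16.1% of all genes (median 0.33, also with Ido2 at its bound), and with all 6 libraries 0 were called (median 0.19). Tph1, tryptophan hydroxylase, which leads tryptophan into serotonin, was at 867, 872 and 1585 CPM in KO 1, KO 2 and KO 3, against 54.3, 52.5 and 864 CPM in WT 1, WT 2 and WT 3. It rose by 4.38 without WT 3 (SE 0.32, adjusted p = 0.000156, edgeR), while the 3-against-3 value was 1.78 (adjusted p = 0.402). Il4i1, an amino acid oxidase whose products from tryptophan activate AHR, was at 8.56, 5.24 and 5.43 CPM under the KO label and 0.721, 2.03 and 4.54 CPM under the WT label. The Il4i1 groups did not overlap, and it rose by 2.22 without WT 3 (SE 0.51, adjusted p = 0.0144). Ido2 and Wars, a tRNA synthetase gene, were the others that rose. Haao, a later enzyme of the kynurenine pathway, fell by 2.58 (SE 0.42, adjusted p = 0.00341). Slc7a8, an amino acid transporter, fell by 1.78 (SE 0.18, adjusted p = 0.000514). Slc7a5, the main route of tryptophan and kynurenine into lymphocytes, was at 584 to 647 CPM under the KO label and 540 to 687 CPM under the WT label and was not called (0.20, adjusted p = 0.111).

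Of 6 other bHLH-PAS factors tested, among them the hypoxia-inducible partners of ARNT, 2 rose and 2 fell without WT 3 (median 0.60), in a fit where 33.9% of all genes were called. With all 6 libraries 0 were called (median 0.43). Hif1a, the hypoxia-inducible factor subunit, fell by 0.67 (SE 0.11, adjusted p = 0.00321, edgeR) and stood at 602 to 750 CPM under the KO label, against 783 to 1064 CPM under the WT label. Epas1, its relative HIF-2α, rose by 1.26 (SE 0.17, adjusted p = 0.00154). Npas2, a clock factor, fell by 1.96 (SE 0.18, adjusted p = 0.000313), with WT 3 at 11.3 CPM beside 10.8 to 15.4 CPM in the libraries labelled KO. Arnt2, given above, was the other that rose.

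Of 14 mono-ADP-ribosyltransferases of the PARP family and enzymes that remove the mark, 3 rose, Tiparp among them, and 6 fell without WT 3 (median -0.50), beside 17.7% and 16.1% of all genes. With all 6 libraries 0 were called (median -0.30). Those that fell were Parp3, Parp9, Parp10, Parp12, Parp14 and Parp16. Parp16, an enzyme of the endoplasmic reticulum membrane, was at 4.23, 3.18 and 1.79 CPM under the KO label, against 15.2, 17.5 and 2.42 CPM under the WT label, and fell by 2.41 (SE 0.35, adjusted p = 0.00214, edgeR). Parp10 fell by 0.75 (SE 0.12, adjusted p = 0.00347), Parp14 by 1.10 (SE 0.23, adjusted p = 0.00997) and Parp3 by 0.60 (SE 0.14, adjusted p = 0.0176). Parp9, Parp10, Parp12 and Parp14 are known as interferon-induced genes. Tiparp was the one PARP gene of this list that rose, beside Macrod1 and Macrod2, which remove ADP-ribose.

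**Figure D4:**
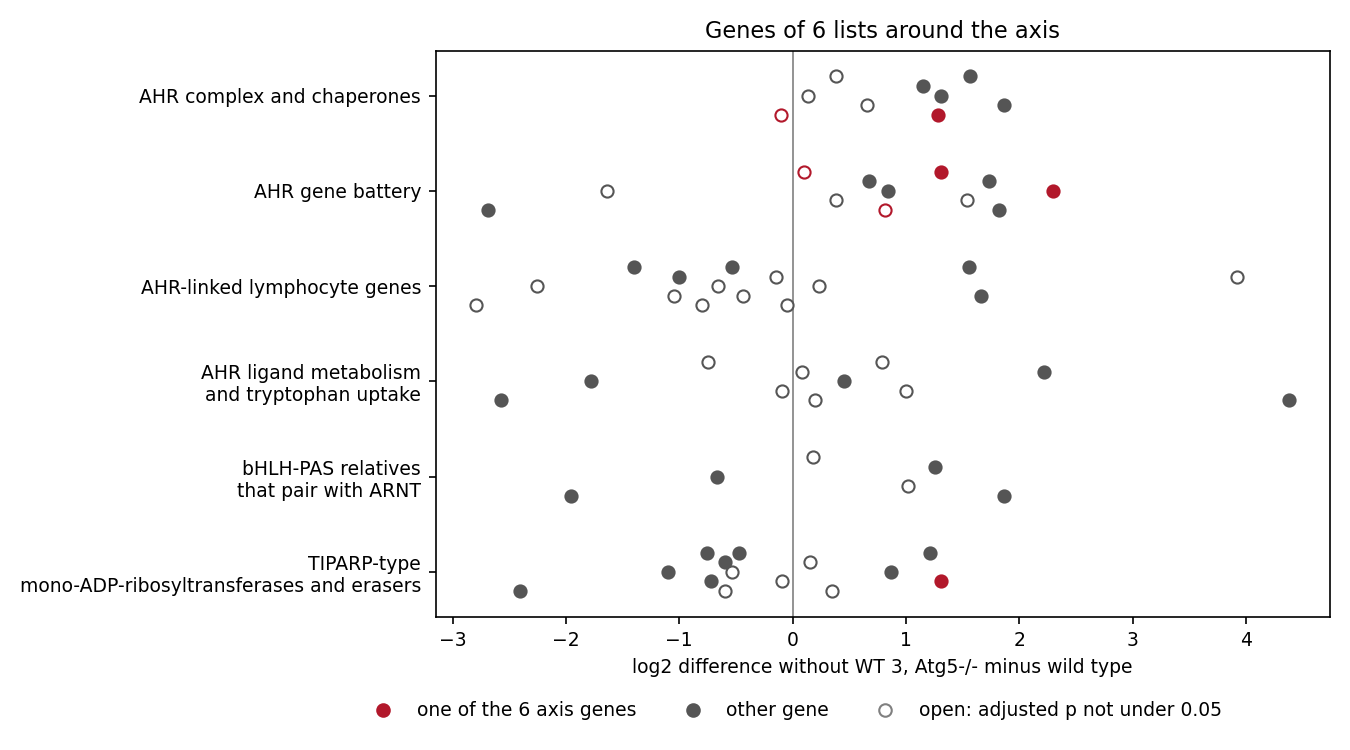
Log2 difference, libraries labelled Atg5-/- minus wild type in the fit without WT 3, for each tested gene of the 6 lists around the axis; axis genes are red, other genes grey, and filled points have an adjusted p under 0.05. Ptgs2, Il22 and Ido2, with fitted values past 5 and a count of 0 in WT 2, are not drawn. Filled points lie to the right of 0 in the list of the complex and its chaperones, and on both sides in the other lists.

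The cells carried the markers of ILC2s, whose 13 genes summed to 11490 to 15520 CPM under the KO label and 15540 to 18450 CPM under the WT label, with Il5 the most abundant. Several of them split WT 1 and WT 2 from the other libraries, but in the direction opposite to Ahr. Gata3 was at 900 to 927 CPM under the KO label against 1559, 1533 and 964 CPM in WT 1, WT 2 and WT 3. Klrg1 was at 121 to 174 CPM against 526, 557 and 154 CPM. Id2 and Thy1 were likewise higher in WT 1 and WT 2. Il13 went the other way, like Ahr, at 286 to 367 CPM under the KO label against 99.0, 117 and 355 CPM. Il7r and Icos were nearly level over the libraries. Markers of other cells were low apart from a few genes, and among those Pecam1, Ccr2, Epcam and Cd3g also set WT 1 and WT 2 apart. Pecam1, of the 5 endothelial markers, was at 92.0 to 131 CPM under the KO label and 8.54 to 93.1 CPM under the WT label, while Vwf and Cldn5 were at most 0.277 CPM. Ccr2, of the 8 macrophage and monocyte markers, was at 54.3 to 61.7 CPM against 60.7 to 717 CPM, with Chil3 next at up to 24.6 CPM and Csf1r at most 1.11 CPM. Epcam was at 8.90 to 13.7 CPM against 14.3 to 57.4 CPM, while Scgb1a1 reached 15.0 CPM in KO 2 alone. The summed T cell markers, led by Trbc2 and Trbc1, were 183 to 199 CPM against 165 to 243 CPM, with Cd3g at 11.4 to 18.8 CPM against 16.3 to 37.2 CPM and Cd3e at most 4.41 CPM. Dendritic cell markers, led by Xcr1 and H2-Ab1, summed to 48.3 to 60.9 CPM against 51.9 to 65.0 CPM. B cell markers, led by Cd79b and Cd79a, summed to 6.67 to 14.3 CPM against 13.5 to 19.5 CPM. The lists of granulocytes and mast cells (led by Cpa3 and Fcer1a), ILC3s (led by Il22), NK cells and ILC1s (Prf1 and Gzma) and fibroblasts (Pdgfrb and Acta2) summed to at most 4.94 CPM under the KO label and 12.8 CPM under the WT label. The part of such cells in the levels of Ahr, Tiparp and Cyp1a1 was not tested.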

How the data were processed

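Messenger RNA was sequenced from sorted lung ILC2s, in 3 libraries labelled Atg5-/- and 3 labelled wild type, grouped by sample title. The authors deposited estimated counts per gene and a second table of normalized signal. Dividing each library's estimated counts, raised by 1, by a single number (31.2 to 36.0) returned the deposited signal. Tools named in the submitters' processing notes are Partek, STAR and CASAVA 1.8.2, and the build is mm10, without roles. The strand setting and the treatment of reads matching several genes are not given in the sources used. Whole estimated counts (within 1e-06) made up 47.1% to 48.5% of the values per library.

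Counts were rounded, then fitted with edgeR 4.0.16 under R 4.3.3 (TMM, filterByExpr, robust quasi-likelihood test, no covariate), with Benjamini-Hochberg adjustment over all genes tested and a threshold of 0.05. The standard error is the log2 difference divided by the square root of F. Profiles were compared as log2 of CPM plus 0.5. Exon lengths come from GENCODE vM21. The fit was tested on simulated counts with an equal dispersion for every gene and no library unlike its group. That setting differs from these data, where WT 3 was unlike WT 1 and WT 2. Alternatives were DESeq2 1.42.0 and limma 3.58.1 (voom; trend on the authors' signal plus 1), other scalings and filters, a replicate block and each library left out. Floors of 3 counts cover counting error only. The axis genes, gene lists and tests were chosen with earlier results of these data known. Text names up to 4 called genes per list by lowest p without WT 3, the 3 nearest profiles of each axis gene, and the 2 most abundant markers of each list of other cells. Slc7a5, Gfi1, Il22, Ptgs2, Ido2, Wars, Macrod1, Macrod2, Gata3, Klrg1, Id2, Thy1, Il5, Il7r, Icos, Cd3e, Cd3g, Csf1r, Cldn5 and the remaining PARP genes were added after their values were seen. Coordinates follow the deposited table, whose ends were lowered by 1 to be inclusive. Some genes that the rule names are left out.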

Additional observations from a re-analysis of the deposited data

How the results depend on the processing

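The calls depended on WT 3. Without WT replicate 3, Ahr was 1.29, Tiparp 1.31 and Cyp1a1 2.29 on the log2 scale and all 3 were called, and without both libraries numbered 3 they were 1.21, 1.20 and 2.27 and again called, giving 3 called axis genes in each fit and 4991 and 6505 called genes in all. DESeq2 called 323 genes but 0 of the axis. Leaving out each library in turn gave 0 to 4991 called genes, 0 to 3 called axis genes, and log2 differences of 0.46 to 1.29 for Ahr, 0.65 to 1.31 for Tiparp, 1.12 to 2.29 for Cyp1a1, 0.52 to 1.25 for Cyp1b1, -0.21 to -0.082 for Arnt and -0.35 to 0.43 for Ahrr. The sign of Ahrr (0.0058 with all 6) is not settled: it was -0.030 with a minimum of 2 CPM in 3 libraries, -0.027 with no filter, -0.0043 by DESeq2, -0.0044 with its size factors, -0.017 with upper-quartile scaling, -0.24 by limma-voom and -0.21 by limma-trend. The other axis genes kept their direction in every alternative that tested them; Cyp1b1 did not reach the 2 CPM filter. Replicate numbers did not pair the samples (correlations of deviations -0.0367, 0.0196 and -0.00776, and 2 of 6 libraries correlated best with their own number); with the replicate block Ahrr was -0.20, and 0 genes were called, as without it.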
